A study of Mus musculus with 3 samples.

Results

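Imprinted genes are expressed from one parental copy only, depending on whether the copy came from the mother or the father. The mark is DNA methylation set in the germ line at imprinting control regions, and in the embryo it is kept by ZFP57, TRIM28 and DNMT1. Most imprinted genes lie in clusters in which one control region sets the activity of several genes, often through a long noncoding RNA (H19, Kcnq1ot1, Airn, Meg3) or through the insulator protein CTCF, as at H19 and Igf2. Many of them regulate embryonic and placental growth.

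Here the imprinted genes outside of the Snrpn domain are described in mouse embryonic stem (ES) cells in which the nucleoporin NUP153, a protein of the nuclear pore basket, was depleted. The list held 37 genes, chosen by name from the known imprinted domains, and all 37 were among the 24421 genes of the deposited read counts. Genes averaging 10 reads or more were compared, which were 35 of the 37 and 16670 of all genes. The others were Kcnk9, a potassium channel gene with 0 reads in every library (a count of 0 allows up to 3 reads), and Kcnq1, a potassium channel gene with 0 reads in control and 3 in each knockdown library.

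RNA-Seq was performed on undifferentiated female EL 16.7 ES cells of the strain background F2:129S1/CastEiJx 129S1, kept with LIF on γ-irradiated mouse embryonic fibroblasts (MEFs) from Tg(DR4)1Jae/J mice. Cells were transduced with lentivirus for a control (scramble) shRNA, labelled wild type, or for NUP153-specific shRNA-1 (KD-1) or shRNA-2 (KD-2). All of them were then selected with 2 μg/ml puromycin for 2 days. There was 1 library for each shRNA, so no difference has a replicate check. The sources used here name no step that removed the feeder cells. Reads of both parental copies were counted together, so the values give the amount of RNA of a gene and not its imprint.

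Reads on genes numbered 69839336 to 85258834 per library. To compare libraries, reads were divided by upper-quartile size factors (scaled reads), and the log2 ratio of 2 libraries was taken with a pseudocount of 0.5 reads. Ratios are given with exact 95% intervals that cover the counting of reads only, and a gene was called higher or lower when the ratio exceeded 1.5-fold. Such a call compares libraries, not conditions. Nup153 itself had 27870 reads in control, 16451 with KD-1 and 11126 with KD-2, a log2 ratio of -0.99 with KD-1 and -1.43 with KD-2. The pluripotency markers were present in every library, with Pou5f1 at 218 and Nanog at 275 RPKM in control, where RPKM is reads on a gene relative to its exon length and to all reads on genes.

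All 18 fibroblast markers examined were also detected, and their summed level followed the library. It was 137493 scaled reads in control, 73714 with KD-1 and 262474 with KD-2. In KD-1, 10 of the 18 were called lower and 0 higher than in control, with a median log2 ratio of -0.63 and a range from -2.01 for Postn to -0.12, where 5.62% of all genes were called lower. In KD-2, 16 were called higher and 0 lower, with a median of 0.80, where 17.1% of all genes were called higher. The summed level of the 14 pluripotency markers took the reverse order, with 403901 scaled reads in control, 441198 with KD-1 and 298710 with KD-2. Single markers did not all follow it. In KD-2, 5 were above control and 9 below, and in KD-1, 11 were above and 3 below. Called in KD-2 were 1 higher and 3 lower (28.6%, beside 27.3% of all genes), with 0 lower when libraries were scaled by their totals. Called in KD-1 were 1 higher and 0 lower (7.14%, beside 14.2% of all genes). Each value below is from a mixed culture, in which fewer cells of a type and less RNA per cell cannot be told apart, and the part of the fibroblasts in the differences between libraries was not tested.

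**Figure D1:**
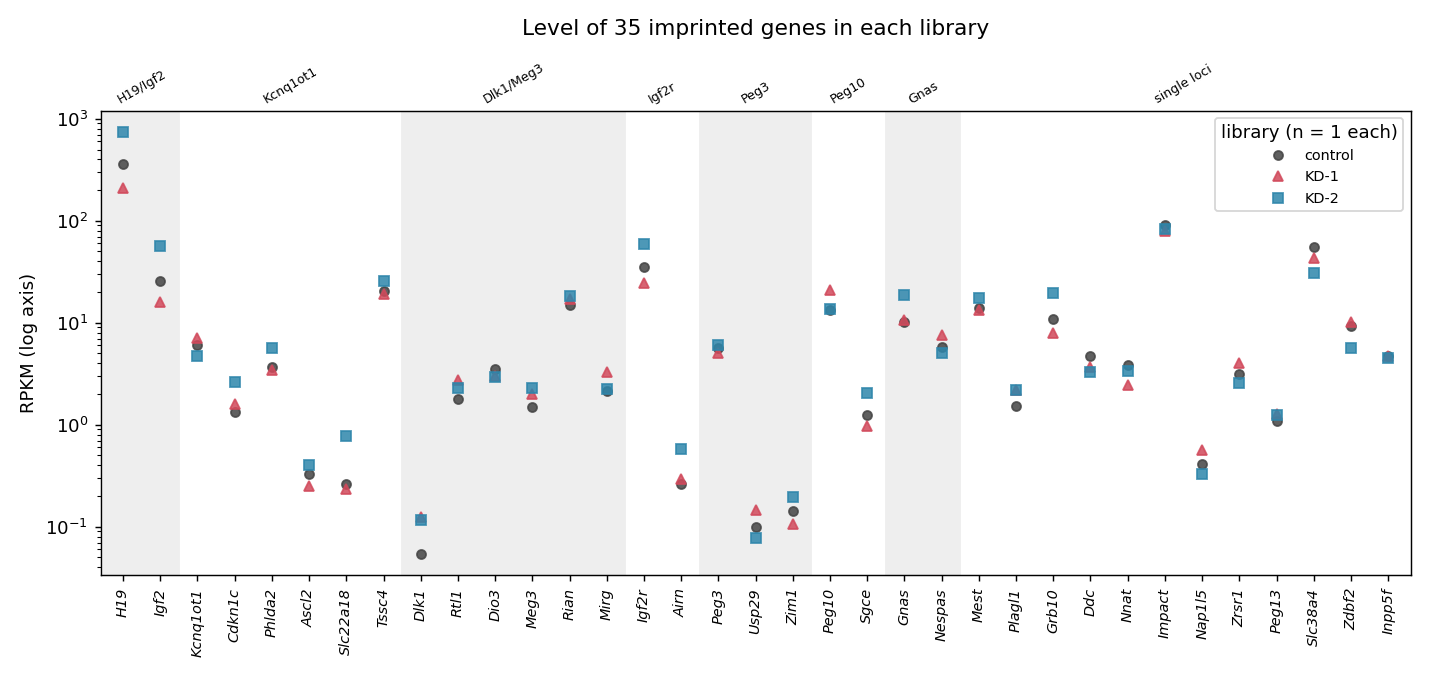
RPKM (log axis) of the 35 imprinted genes compared, in the control (circles), KD-1 (triangles) and KD-2 (squares) libraries, 1 library each, grouped by domain. H19 has the highest level in every library, and Dlk1 and Usp29 are the lowest in control, at 0.0538 and 0.0994 RPKM.

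The levels of the genes differed widely. Per exon length, H19 was highest in control, at 364 RPKM, followed by Impact at 91.9, Slc38a4 at 54.8, Igf2r at 35.1 and Igf2 at 25.7 RPKM. Tssc4, Rian, Mest, Peg10, Grb10 and Gnas lay between 20.7 and 10.1 RPKM. At the other end, Nap1l5, Ascl2, Airn, Slc22a18, Zim1, Usp29 and Dlk1 were under 0.5 RPKM. With 1 library each, neighbours in this order cannot be told apart beyond counting error. Exon lengths were those of GENCODE M21, in which Kcnq1ot1 is a single stretch of 93092 bases, so its 6.06 RPKM stands for 40796 reads.

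Sequences are shown for 3 start regions and for the miRNAs that H19 encodes, because they carry the features by which these loci are known. The hexamer TGCCGC, which ZFP57 binds when it is methylated, was searched on both strands (TGCCGC and GCGGCA, each counted on its own where they overlap) in windows from 250 bases before to 50 bases after RefSeq start sites (GRCm38.p6). Of the 37 genes, 27 had such windows, 41 in all, and 10 windows of 9 genes (24.4% of windows) held the hexamer, against 11.6% of all 32851 windows. The windows of these genes were also richer in CpG, with a median of 15 against 7 in all windows. The genes were Zdbf2, Nnat, Mest, Nap1l5, Zim1, Igf2, Plagl1, Grb10 and Meg3. The most copies, 3, were in the upstream window of Zdbf2 (chr1:63200108-63200407, plus strand), and Nap1l5 (chr6:58907077-58907376, minus strand) had 2, as did Mest in windows of start sites 3 bases apart, which are nearly the same stretch and count as 2 of the 10 windows. Those of Zdbf2 and Nap1l5 are printed below with the hexamer in capitals.
Zdbf2: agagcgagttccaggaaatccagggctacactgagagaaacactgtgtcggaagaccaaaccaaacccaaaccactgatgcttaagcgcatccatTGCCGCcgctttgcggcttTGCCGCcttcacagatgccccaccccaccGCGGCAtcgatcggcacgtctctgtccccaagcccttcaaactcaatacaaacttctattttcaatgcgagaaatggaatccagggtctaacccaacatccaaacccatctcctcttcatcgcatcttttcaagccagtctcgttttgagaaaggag
Nap1l5: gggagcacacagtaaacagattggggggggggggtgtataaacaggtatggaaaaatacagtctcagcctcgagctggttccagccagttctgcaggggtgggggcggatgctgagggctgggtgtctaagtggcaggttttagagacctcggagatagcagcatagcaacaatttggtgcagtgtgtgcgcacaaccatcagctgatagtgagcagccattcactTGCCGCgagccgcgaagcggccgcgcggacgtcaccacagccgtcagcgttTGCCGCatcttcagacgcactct

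The third start region is shared by Peg3 and Usp29, which are transcribed away from each other from start sites 147 bases apart. Their windows overlap by 263 bases and hold no TGCCGC. The Usp29 window (chr7:6730333-6730632, plus strand) is printed with its 17 CpG in capitals.
Usp29: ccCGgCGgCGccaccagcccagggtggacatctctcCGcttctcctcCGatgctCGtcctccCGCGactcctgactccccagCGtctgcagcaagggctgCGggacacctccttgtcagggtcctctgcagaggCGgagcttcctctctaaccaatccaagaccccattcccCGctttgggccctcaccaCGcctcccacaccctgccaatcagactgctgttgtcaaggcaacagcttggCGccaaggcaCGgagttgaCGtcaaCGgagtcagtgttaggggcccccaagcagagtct

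H19 is the host of miR-675, whose mature forms (RefSeq, GRCm38.p6) lie in an exon of H19 on the minus strand of chromosome 7, from 142577112 to 142577133 and from 142577078 to 142577099. They are printed with the seed, bases 2 to 8, in capitals. Mature miRNAs were not measured in these libraries.
miR-675-5p: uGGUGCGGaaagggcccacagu
miR-675-3p: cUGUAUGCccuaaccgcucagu

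In KD-1 compared to control, 7 of the 35 genes were called, 4 higher and 3 lower (20.0%), and over all 16670 genes tested 14.2% were called, 8.63% higher and 5.62% lower. With DESeq2's size factors 2 were called higher and 3 lower, and the share of 14.3% was near the 14.2% of all genes. The genes called higher were Dlk1, Peg10, Mirg and Rtl1, and those called lower were H19, Igf2 and Nnat. In KD-2 compared to control, 12 of the 35 genes were called, 9 higher and 3 lower (34.3%), with 27.3% of all genes called, 17.1% higher and 10.2% lower. Of all genes called, 62.6% were higher, and 82.8% when libraries were scaled by their totals. Called higher were H19, Igf2, Slc22a18, Airn, Dlk1, Cdkn1c, Gnas, Grb10 and Igf2r, and called lower were Slc38a4, Zdbf2 and Ddc. The median log2 ratio of the 35 genes was 0.01 with KD-1 and 0.14 with KD-2, and that of all genes was 0.02 and -0.02. Both comparisons use the same control library.

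The knockdown libraries were also compared directly, which does not involve the control library. In KD-1 against KD-2, 18 of the 35 genes were called (51.4%), 9 higher and 9 lower in KD-1, where 30.1% of all genes were called, 13.9% higher and 16.1% lower. Of all genes called, 46.3% were higher, and 25.8% when libraries were scaled by their totals. Higher in KD-1 were Usp29, Zdbf2, Nap1l5, Zrsr1, Peg10, Nespas, Kcnq1ot1, Mirg and Slc38a4. Of these, Kcnq1ot1, Mirg and Slc38a4 were not called with scaling by library totals, and Slc38a4 was not called with DESeq2's size factors. Cdkn1c, Phlda2 and Ascl2 were called lower with both of these scalings, which gave 6 genes higher and 12 lower with library totals, and 8 higher and 12 lower with DESeq2's size factors. Lower in KD-1 were Igf2, H19, Slc22a18, Grb10, Igf2r, Sgce, Airn, Zim1 and Gnas. In this comparison the median of all genes was 0.12, and that of the 35 genes was 0.07.

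The labels give both knockdown libraries the same genotype, so they were also tested as a group against control with edgeR's quasi-likelihood test over all 21164 genes with a read. Its spread rests on the difference between the knockdown libraries, which leaves 1 residual degree of freedom. Of all genes 4 were called (0.0189%), and of the 36 imprinted genes with a read 0 were called, all at an adjusted p of 1 with edgeR, and 0 had an unadjusted p under 0.05. The smallest unadjusted p was 0.105, for Dlk1. The Wald test of DESeq2 called 0 of the 36 as well, also with 0 unadjusted p under 0.05.

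At the H19/Igf2 domain on distal chromosome 7, both genes were lower than control with shRNA-1 and higher with shRNA-2. H19 (chr7:142575529-142578143, minus strand), the maternally expressed noncoding RNA, had 70060 scaled reads in control, 40630 with KD-1 and 128193 with KD-2. This is 1.72-fold lower in KD-1 (log2 ratio -0.79, interval -0.80 to -0.77) and 1.83-fold higher in KD-2 (0.87, interval 0.86 to 0.89). Igf2 (chr7:142650766-142666816, minus strand), the paternally expressed fetal growth factor, whose exons overlap those of Igf2os on the opposite strand, had 11528 scaled reads in control, 7192 with KD-1 and 22977 with KD-2. Its log2 ratio was -0.68 with KD-1 (interval -0.72 to -0.64) and 1.00 with KD-2 (interval 0.96 to 1.03). The maternally and the paternally expressed gene of this domain thus had the same order of libraries. Between the knockdown libraries, H19 was 3.16-fold and Igf2 3.19-fold lower with KD-1 than with KD-2. The summed fibroblast markers had the same order, and all 18 of them were called lower with KD-1 than with KD-2, with a median log2 ratio of -1.61, where 16.1% of all genes were called lower.

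The Igf2r domain on chromosome 17 holds Igf2r, the maternally expressed receptor that clears IGF2, and Airn, the paternally expressed noncoding RNA that silences it in cis. Igf2r (chr17:12682406-12769664, minus strand) had 25584 scaled reads in control, 18048 with KD-1 and 38566 with KD-2. Its log2 ratio was -0.50 in KD-1 (interval -0.53 to -0.48), within 1.5-fold, and 0.59 in KD-2 (interval 0.57 to 0.62), just past it. Airn had few reads, 69 in control, 91 with KD-1 and 145 with KD-2. It was called higher in KD-2 (0.96, interval 0.54 to 1.40) and was at 0.17 in KD-1, with an interval from -0.30 to 0.64. Airn and Igf2r were thus both higher in KD-2, and both were called lower with KD-1 than with KD-2, at -1.10 for Igf2r and -0.79 for Airn. In control Airn was at 0.265 and Igf2r at 35.1 RPKM, and whether Airn acts on Igf2r in these cells was not tested.

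In the Kcnq1ot1 domain, which neighbours H19/Igf2 on chromosome 7, 2 of the 6 genes compared were called between the knockdown libraries, Kcnq1ot1 as higher and Slc22a18 as lower in KD-1, a share of 33.3% beside 30.1% of all genes. The call of Kcnq1ot1 was lost with scaling by library totals. Kcnq1ot1 (chr7:143203458-143296549, minus strand), the paternally expressed RNA that silences the domain, had 44177 scaled reads in control, 51895 with KD-1 and 31002 with KD-2. It was within 1.5-fold of control in both (0.23 and -0.51) and was called higher with KD-1 than with KD-2, at 0.74 (interval 0.72 to 0.76). Its exon overlaps exons of Kcnq1 on the opposite strand, and which strand was counted is not given in the sources used here.

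Of the maternally expressed genes of this domain, Cdkn1c, which encodes the cell cycle inhibitor p57KIP2, had 213 scaled reads in control, 258 with KD-1 and 376 with KD-2. It was called higher in KD-2 (0.82, interval 0.57 to 1.07) and was at 0.27 in KD-1 (interval 0.01 to 0.54). Slc22a18, a transporter gene, had 32 reads in control, 34 with KD-1 and 92 with KD-2, with a log2 ratio of 1.40 in KD-2 (interval 0.82 to 2.04). In KD-1 Slc22a18 was at -0.14, and its interval, from -0.88 to 0.60, leaves the direction unknown. The placental growth regulator Phlda2, the trophoblast transcription factor gene Ascl2 and Tssc4 were not called, with log2 ratios from -0.38 to -0.07 in KD-1 and from 0.13 to 0.48 in KD-2, where Phlda2 was called with library totals. Ascl2 is known for its role in the placenta, and with 35 to 46 reads per library its intervals included 0 in both comparisons. In KD-1 against KD-2, Slc22a18 was called at -1.54 (interval -2.17 to -0.98), while Cdkn1c and Phlda2 at -0.54 each, Ascl2 at -0.51 and Tssc4 at -0.26 were within 1.5-fold. Cdkn1c and Phlda2 were called in this comparison with each of the other scalings (TMM, DESeq2's size factors and library totals), and Ascl2 with the latter pair.

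The Dlk1/Meg3 domain on chromosome 12 had 3 of its 6 genes among the 4 that were past 1.5-fold higher with KD-1, beside 8.63% of all genes, but with DESeq2's size factors Dlk1 was the 1 gene of the domain that was still called. Dlk1, the paternally expressed transmembrane inhibitor of adipocyte differentiation, had few reads, 22 in control, 60 with KD-1 and 46 with KD-2. It was called higher in both, at 1.20 with KD-1 (interval 0.49 to 1.99) and 0.94 with KD-2 (interval 0.19 to 1.76). Rtl1, a paternally expressed gene derived from a retrotransposon and needed in the placenta, had 894 scaled reads in control, 1382 with KD-1 and 1016 with KD-2. Rtl1 was called higher in KD-1 (0.63, interval 0.50 to 0.75) and was at 0.18 in KD-2, and its exons overlap miRNA genes counted on the opposite strand.

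The noncoding RNAs of the same domain come from the maternal copy and host miRNAs and small nucleolar RNAs. Mirg, the host of 14 miRNA hairpins in RefSeq, had 1211 scaled reads in control, 1884 with KD-1 and 1156 with KD-2. It was called higher in KD-1 (0.64, interval 0.53 to 0.74) and was at -0.07 in KD-2. With DESeq2's size factors, Rtl1 and Mirg were no longer called in KD-1. Rian had 21190 scaled reads in control, 24589 with KD-1 and 23386 with KD-2, within 1.5-fold at 0.21 and 0.14. Meg3, the noncoding RNA nearest to the control region, was at 0.43 and 0.45 and was called in KD-2 with library totals, and Dio3, which encodes the enzyme that inactivates thyroid hormone, was at -0.23 and -0.40.

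At the paternally expressed Peg10 and Sgce, which start 99 bases apart on opposite strands of chromosome 6, the libraries differed in order. Peg10 (chr6:4747306-4760517, plus strand), a retrotransposon-derived gene needed for the placenta, had 6950 scaled reads in control, 10982 with KD-1 and 6424 with KD-2. It was 1.58-fold higher in KD-1 (0.66, interval 0.62 to 0.70) and was at -0.11 in KD-2. Sgce (chr6:4674350-4747207, minus strand), which encodes ε-sarcoglycan, had 1040 scaled reads in control, 811 with KD-1 and 1523 with KD-2. It was within 1.5-fold of control in both, at -0.36 and 0.55, but in KD-2 it was called higher with each of the other scalings (0.59 with TMM and with DESeq2's size factors, 0.71 with library totals). Compared directly, Peg10 was called higher with KD-1 than with KD-2 (0.77, interval 0.73 to 0.82) and Sgce lower (-0.91, interval -1.03 to -0.79), so that neighbours sharing a start region had opposite calls.

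Of Peg3 and Usp29, whose shared start region is printed above, only Usp29 was called, and only between the knockdown libraries. Peg3 (chr7:6703892-6730431, minus strand), a zinc finger gene with a role in maternal behaviour and growth, was within 1.5-fold in every comparison, at -0.17 with KD-1 and -0.09 with KD-2. Usp29 (chr7:6730578-6967219, plus strand), a ubiquitin protease gene, had 141 scaled reads in control, 208 with KD-1 and 98.5 with KD-2. Its log2 ratio was 0.56 with KD-1 (interval 0.24 to 0.89) and -0.51 with KD-2 (interval -0.91 to -0.13), and it was called higher with KD-1 than with KD-2 (1.07, interval 0.73 to 1.43). Zim1, the maternally expressed zinc finger gene next to Peg3, had 83 reads in control, 74 with KD-1 and 111 with KD-2, and was called lower with KD-1 than with KD-2 (-0.70, interval -1.15 to -0.27). Exons of Usp29 overlap those of Zim3 on the opposite strand.

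At the Gnas domain on chromosome 2, Gnas, which encodes the stimulatory G protein α subunit and several imprinted isoforms, had 8836 scaled reads in control, 9340 with KD-1 and 14582 with KD-2. It was called higher in KD-2 (0.72, interval 0.68 to 0.76) and was at 0.08 in KD-1. Nespas, the paternally expressed antisense RNA, had 1434 scaled reads in control, 1900 with KD-1 and 1123 with KD-2. Nespas was within 1.5-fold of control in both libraries, at 0.41 and -0.35, and was higher with KD-1 than with KD-2 at 0.76, where Gnas was lower at -0.64. The sense and antisense gene thus took opposite directions in the direct comparison. Their exons overlap on opposite strands, and as the strand counted is not given, how reads of the overlap were assigned is not known.

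Among the single loci, Grb10 on chromosome 11 had the same order of libraries as Igf2r. Grb10, an adaptor that inhibits growth through the insulin and IGF receptors, had 7714 scaled reads in control, 5719 with KD-1 and 12649 with KD-2. Its log2 ratio was -0.43 with KD-1 (interval -0.48 to -0.38) and 0.71 with KD-2 (interval 0.67 to 0.76), of which the latter was called. Its neighbour Ddc, which encodes aromatic L-amino acid decarboxylase, had 1660 scaled reads in control, 1303 with KD-1 and 1021 with KD-2, and was called lower in KD-2 (-0.70, interval -0.82 to -0.59). This call was lost when libraries were scaled by their totals. The neighbours Grb10 and Ddc were thus called in opposite directions in KD-2.

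The paternally expressed Slc38a4 and Zdbf2 were called lower in KD-2. Slc38a4, an amino acid transporter gene, had 18291 scaled reads in control, 14476 with KD-1 and 9113 with KD-2, which is 2.01-fold lower in KD-2 (-1.01, interval -1.04 to -0.97) and -0.34 in KD-1. Zdbf2 (chr1:63273265-63314576, plus strand), a zinc finger gene that acts on growth through the hypothalamus, had 9226 scaled reads in control, 10025 with KD-1 and 5053 with KD-2. It was called lower in KD-2 (-0.87, interval -0.92 to -0.82) and was at 0.12 in KD-1. Zrsr1, a retrogene of a splicing factor whose exon overlaps an exon of Commd1 on the opposite strand, was within 1.5-fold of control in both libraries (0.38 and -0.43) and higher with KD-1 than with KD-2 (0.82, interval 0.69 to 0.94).

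The retrogene Nap1l5, with 55 reads in control, 88 with KD-1 and 42 with KD-2, was also within 1.5-fold of control in both (0.45 and -0.49) and was called higher with KD-1 than with KD-2 (0.94, interval 0.40 to 1.51). Nnat, a proteolipid gene of developing brain, was the only single locus called in KD-1, with 548 scaled reads in control, 353 with KD-1 and 428 with KD-2 and a log2 ratio of -0.63 (interval -0.83 to -0.44). Impact, a regulator of the kinase GCN2 and the second highest gene per exon length, had 36922 scaled reads in control, 32100 with KD-1 and 29703 with KD-2. Impact was within 1.5-fold throughout, at -0.20 and -0.31. Mest, Plagl1, Peg13 and Inpp5f were not called in any comparison, and the highest of their ratios was 0.56, for Plagl1 in KD-1. Plagl1 encodes a zinc finger factor that activates other imprinted genes.

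Grouped by the parental copy from which the genes are known to be expressed, 11 of those tested were maternally and 22 paternally expressed. Gnas and Grb10, which depend on isoform or tissue, were put in neither group. Isoform or tissue may matter for other genes as well, and the copy expressed was not measured in these cultures. In KD-2, 4 of the 11 maternally expressed genes were called higher and 0 lower than in control, and of the 22 paternally expressed genes 3 were called higher and 3 lower. The shares of all genes in this comparison were 17.1% higher and 10.2% lower, and the paternally expressed genes, with 27.3% called in either direction, had the same share called as all genes. The median log2 ratio in KD-2 was 0.45 for the maternally expressed genes and -0.27 for the paternally expressed ones. In KD-1 the medians were -0.12 and 0.14. In the direct comparison, 1 of the 11 was called higher in KD-1 and 4 lower, and of the 22, 8 were called higher and 3 lower, beside 13.9% higher and 16.1% lower over all genes. Library totals and DESeq2's size factors each added Cdkn1c, Phlda2 and Ascl2 to the maternally expressed genes called lower. With library totals Mirg, the 1 called higher, was lost. Of the paternally expressed genes called higher, Slc38a4 was lost with both of these scalings and Kcnq1ot1 with library totals. In KD-2 against control, library totals added the maternally expressed Phlda2 and Meg3 and the paternally expressed Sgce to the genes called higher. They also lost the paternally expressed Ddc, which had been called lower. Sgce was added with TMM and DESeq2's size factors too. Of the maternally expressed genes, Cdkn1c, Phlda2, Ascl2, Slc22a18 and Tssc4 lie in the Kcnq1ot1 domain, and H19, Rian, Meg3 and Mirg in only 2 others. Several paternally expressed genes share domains as well, so the genes of a group are not independent of each other.

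Other imprinted genes, from a list of 37 further names of which 27 passed the read minimum, had medians near those of all genes, -0.03 with KD-1 and 0.00 with KD-2. In KD-1, 2 were called higher and 2 lower, and in KD-2, 6 were called higher and 0 lower (10 called with scaling by library totals). These are 14.8% of the list against 14.2% of all genes in KD-1, and 22.2% against 27.3% in KD-2, where library totals gave 37.0% of the list and 28.6% of all genes. Cd81, a tetraspanin gene, was lower in KD-1 (-0.84), and Osbpl5, a lipid transfer gene, was higher in KD-2 (0.99). Asb4 was called higher in both, at 0.79 and 0.78. In KD-1 against KD-2, 9 of the 27 were called lower and 1 higher, led by Osbpl5 at -1.35 and Cd81 at -1.31. This was 37.0% of the list, and over all genes 30.1% were called, 16.1% lower and 13.9% higher.

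Genes of the Snrpn domain, the other large imprinted cluster of chromosome 7, passed the minimum in 6 of 9 cases. The noncoding RNA Ipw was called higher in both comparisons, at 2.38 with KD-1 (interval 2.18 to 2.58) and 2.25 with KD-2 (interval 2.05 to 2.46), and Atp10a was called lower in KD-2 at -0.90. None of the 35 genes outside of the Snrpn domain reached a ratio of this size, and the highest were 1.20 for Dlk1 in KD-1 and 1.40 for Slc22a18 in KD-2.

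Of the 21 genes that set, keep or read the imprint, all were tested, and in KD-1 only Zfp57, which encodes the factor that protects imprints from demethylation, was called, 4.76% of the list beside 14.2% of all genes. Zfp57 had 5227 reads in control, 10109 with KD-1 and 4836 with KD-2, a log2 ratio of 0.72 with KD-1 (interval 0.67 to 0.77) and -0.22 with KD-2. In KD-2, 0 of the 21 were called higher and 4 lower, with a median of -0.44, but with scaling by library totals Dppa3 was the 1 gene still called lower and Ehmt2 was called higher. The share of the list called in KD-2, 4 of 21, was below the 27.3% called of all genes, where 17.1% were higher and 10.2% lower. The 3 with the largest ratios were Dppa3, a maternal factor that shields methylation in the early embryo, at -1.61 (interval -1.69 to -1.53), the DNA methyltransferase gene Dnmt3b at -0.66 and Hells, a chromatin remodeller needed for DNA methylation, at -0.63. Trim28 and Dnmt1 were within 1.5-fold in both libraries, at 0.13 and -0.29 for Trim28 and at -0.15 and -0.50 for Dnmt1. Ctcf, whose protein binds the unmethylated H19 control region, was at -0.07 and -0.48. The pluripotency markers had a median of -0.30 in KD-2 as well, and 3 of 14 were called lower and 1 higher there, but with scaling by library totals 0 were called lower and 1, Utf1, higher.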

How the data were processed

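Per the labels and the methods, ribosomal RNA was removed from total RNA (Ribo-Zero Gold), and 1 library per shRNA was sequenced in single-end reads of 50 bp. The authors trimmed reads with Trim Galore 0.4.1, mapped them with TopHat 2.1.1 to mm10, and what they deposited are raw counts of reads for each gene symbol. The methods name featureCounts and the labels' processing notes HTSeq as the counter. The 5 summary lines, which name no gene and can hold reads that fall on more than 1 gene, had 23.0% to 25.6% of the reads and were left out.

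Libraries were scaled by upper-quartile normalization in edgeR 4.0.16 (R 4.3.3). With 1 library per condition no single knockdown was tested; genes averaging 10 reads or more were called at a fold change above 1.5, and intervals are conditional binomial (Clopper-Pearson). The study's fixed dispersion from spike-ins was not used. For both knockdowns together against control, edgeR's quasi-likelihood test was run on TMM-scaled counts, with Benjamini-Hochberg adjustment, and DESeq2 1.42.0 was the alternative. The scripts for these tests were tested on simulated data. RPKM were computed from the counts with merged exons of GENCODE M21 (GRCm38), which may differ from the UCSC annotation used for counting. Python 3.11.15 (numpy 2.4.6, scipy 1.17.1, pandas 2.3.3, matplotlib 3.10.9) was used for ratios, intervals and plots.

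The genes and lists were chosen with earlier results of these data known. Given in full are the 25 genes called in any comparison or among the 5 highest in mean reads. From other lists, up to 3 genes per comparison averaging 100 reads or more could be named, those called with the largest ratios, and Trim28, Dnmt1, Ctcf, Pou5f1 and Nanog were named in addition for their known roles. Ehmt2, Tfap2c, Cdx2 and Gata3 were named after their values were seen. Alternatives were other scalings, pseudocounts, read minimums, fold thresholds and tests.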

Additional observations from a re-analysis of the deposited data

Results flagged for a closer look

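H19 and Igf2 were past 1.5-fold in opposite directions in the knockdown libraries. H19 had a log2 ratio of -0.79 with KD-1 and 0.87 with KD-2, and that of Igf2 was -0.68 with KD-1 and 1.00 with KD-2. With 1 library per shRNA the difference between the knockdowns was not tested. The summed fibroblast markers were lowest in KD-1 and highest in KD-2 as well, and their part in this was not tested.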

How the results depend on the processing

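No paired analysis was possible because each shRNA has 1 library. Among the 105 log2 ratios of the 35 genes, the called ones could not change sign under TMM, DESeq2's size factors, library totals or a pseudocount of 5 reads. These scalings shifted the ratios of a comparison by less than the 1.5-fold that a call needs, and a pseudocount cannot reverse a ratio. That none changed sign is therefore no check of the calls. Relative to upper-quartile scaling, library totals moved the median of all genes in KD-2 from -0.02 to 0.14 and in KD-1 against KD-2 from 0.12 to -0.04. Under the scalings, Inpp5f in KD-1, Mirg, Peg3 and Peg10 in KD-2, and Rian and Impact between the knockdowns, all within 1.5-fold, changed sign. Calls higher made up 62.6% of all calls in KD-2, against 82.8% with library totals, and 60.5% in KD-1 and 46.3% in KD-1 against KD-2, against 51.5% and 32.9% with DESeq2's size factors. A fold change above 2, by its construction, left 1 call in KD-1 (Dlk1, 1 higher and 0 lower), 2 in KD-2 (Slc22a18 higher and Slc38a4 lower, 1 each) and 6 between the knockdowns (1 higher, 5 lower), where 4.62% and 7.27% of all genes were called in the knockdowns, and 3.14% were higher and 7.89% lower between them. DESeq2's size factors left 2 of 4 genes higher in KD-1 (7.29% of all genes were higher), and gave 2 Snrpn domain genes in place of 1 in KD-1 and 2 of 7 neural markers in place of 4 between the knockdowns, beside 14.2% and 28.4% of all genes. Library totals gave in KD-2, beside 28.6% of all genes, 10 other imprinted genes in place of 6, 2 of 21 genes that keep the imprint in place of 4 and 1 of 14 pluripotency markers in place of 4. Between the knockdowns, beside 28.5% of all genes, they gave 3 genes that keep the imprint in place of 6, 2 pluripotency markers in place of 4 and 1 neural marker in place of 4. With a pseudocount of 5 reads 1 extraembryonic endoderm marker in place of 2 was past 1.5-fold between the knockdowns, beside 28.2% of all genes. The cause of these shifts was not tested. For both knockdowns against control, 2 genes were called with upper-quartile scaling, 2 with DESeq2's size factors, 2 with the Wald test and 0 with a minimum mean of 10 reads (190 with an unadjusted p under 0.05 in edgeR), against 4 with TMM. Reads limit the genes of low level: the 95% interval of the ratio in KD-1 spanned 0.04 for H19 and 1.5 for Dlk1 on the log2 scale.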

Other observations

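Markers of other cell types were summed in the same way. The trophoblast markers had, mostly from the transcription factor gene Tfap2c, 3253 scaled reads in control, against 2818 with KD-1 and 2697 with KD-2. Tfap2c had 2905, 2259 and 2157 of these and was within 1.5-fold, while 3 of the 5 markers compared were past 1.5-fold higher in each knockdown library, beside 8.63% of all genes with KD-1 and 17.1% with KD-2. Of these, Cdx2 had 6 reads in control and Gata3 17, and the interval of Gata3 with KD-2 ran from -0.04 to 1.79. The third was Eomes, a regulator of trophoblast stem cells, at 0.67 with KD-1 and 0.60 with KD-2. The extraembryonic endoderm markers rested on few reads, 890 scaled reads in control, against 1013 with KD-1 and 1238 with KD-2, of which Dab2, an endocytic adaptor, was at 0.63 with KD-2. The neural markers had 19289 scaled reads in control, against 21379 with KD-1 and 15279 with KD-2. The highest single marker had about 12800, 13400 and 10200 of these. Of the 7 compared, 2 were called higher and 1, Map2 at -0.84, lower in KD-1 (42.9%, beside 14.2% of all genes). In KD-2, where the sum was lower than in control, 1 was called higher and 0 lower (14.3%, beside 27.3% of all genes).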
